A study of Homo sapiens with 29 samples.

Results

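AXL Y643F is a line of PC9 cells, an EGFR-mutant human lung adenocarcinoma line, that carried a transduced AXL receptor with phenylalanine in place of the tyrosine Y643. Its libraries were picked by the genotype given in the sample labels, with no measured value involved, and number 3 of the 29 in the series. They were set against the 18 libraries of 6 other transduced lines, WT, Y634F, Y698F, Y726F, Y750F and Y821F, which carried wild-type AXL or the receptor with the Y-to-F change that the name gives. All 7 lines came from the same AXL knockout (KO), made in PC9 by CRISPR-Cas9 and then transduced by lentivirus. Each line had an untreated library (UT), a library with 1 µM erlotinib (E) and a library in which the AXL-activating antibody AF154 was added to erlotinib at 300 ng/mL (EA). Dishes were seeded with 300000 cells, treated the next day and lysed after 24 h of treatment. The untransduced KO and the line with kinase-dead AXL (KD) are given beside the results, with the parental line where it bears on them, and KO with EA was not analysed here.

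AXL is a receptor tyrosine kinase of the TAM family, with TYRO3 and MERTK, and its ligand is GAS6. Phosphorylated tyrosines in the intracellular part of such receptors dock adaptor proteins and kinases, and phenylalanine at that place cannot be phosphorylated. Erlotinib blocks EGFR, on which PC9 cells depend for growth, and AXL is known as a receptor through which lung cancer cells survive that block. The lines were populations kept by sorting and not clones, and by the study's account each still held cells without AXL. The share that its supplement gives for AXL-expressing cells makes them a minority of the transduced cells. With 1 library per line and treatment, the 3 libraries of Y643F came from the same transduced cells, so the receptor mutation cannot be told apart from any other property of this line.

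The changed codon is shown with its neighborhood because the nearest mutated tyrosine of the panel, Y634, lies in the same short stretch. In the AXL transcript AXL-201 (894 codons, GENCODE release 29, GRCh38), all 6 numbered positions are tyrosine codons, whereas in AXL-202 (885 codons) 3 of 6 are. Positions were therefore read on AXL-201, counted from 1 at the start codon. The codon of Y643 is TAC at chromosome 19 from 41253599 to 41253601, in exon 17 on the plus strand, and that of Y634 is TAT in exon 16, from 41252941 to 41252943. Codons 630 to 647 of the reference span chromosome 19 from 41252929 to 41253613 across 2 exons, and the codons of Y634 and Y643 are in capitals. The sequence is the reference, not that of the transduced gene.
AXL-201, codons 630 to 647: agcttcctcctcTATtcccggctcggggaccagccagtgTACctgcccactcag

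AXL (ENSG00000167601, chromosome 19 from 41219203 to 41261766) was present in Y643F at 311 TPM untreated (TPM is the length-corrected share of a library's transcripts, scaled to the same total in every library), 525 TPM with E and 493 TPM with EA. The 6 other lines ran from 217 to 428 TPM untreated, from 408 to 852 TPM with E and from 338 to 849 TPM with EA. KO stood at 92.4 TPM untreated and 79.3 TPM with E. Y643F thus lay inside the range of the other transduced lines in each treatment. On the log2(TPM + 1) scale its mean over treatments differed from theirs by -0.14 ± 0.32 (SE, limma with Benjamini-Hochberg adjustment, adjusted p = 0.868). EGFR, the target of erlotinib, was at 171, 134 and 147 TPM in Y643F and differed from the other lines by 0.0047 ± 0.07 (SE), a value that turned negative with equal library medians. The epithelial markers EPCAM and CDH1 were at 322 to 411 TPM and at 92.9 to 169 TPM in Y643F, as the labelled cell type would have them. Of 16 markers of blood, endothelial, stromal, liver and neuroendocrine cells, 10 were under 1 TPM in all 3 Y643F libraries. Their summed level was 36.0 to 67.9 TPM there and 32.2 to 78.1 TPM in the 18 other libraries, most of it COL1A1. For 6 of the 16 the highest value of all 29 libraries was in Y643F, among them PECAM1 (9.60 TPM) and CDH5 (2.80 TPM), markers of endothelium. VWF, also listed for endothelium, reached 0.264 TPM in Y643F and 0.755 TPM over all 29 libraries. The part of these markers in the results was not tested.

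The level of each gene in Y643F was compared first, as the mean of its 3 libraries against the means of the 6 other lines. Of 9085 genes whose mean over the libraries reached 10 TPM, 0 passed limma's test after Benjamini-Hochberg adjustment, where the smallest adjusted p was 0.313. Without adjustment, 991 genes (10.9%) were higher and 122 (1.34%) lower at a p under 0.05. Since no gene passed, the genes below are described by where their libraries lay. In each of the 3 treatments, 300 genes (3.30% of those tested) lay above all 6 other lines and 34 genes (0.374%) lay below all 6, together 334 genes (3.68%). The same count taken for the other lines gave 203 genes for WT, 163 for Y634F, 106 for Y750F, 100 for Y821F, 57 for Y726F and 47 for Y698F.

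The direction of this difference depended on the scale. The median gene of the kept set was 5.11 to 5.15 in the 3 Y643F libraries and 5.0 to 5.11 in the 18 others (log2), and the median difference over all genes was 0.06. When the library medians were set equal, 105 genes lay above and 167 below, so the share above went from 89.8% to 38.6%. All 105 were among the 300 and all 34 among the 167. All 12 genes named below the range lay below on either scale, and of the 12 named above it 8 lay above on both.

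**Figure D1:**
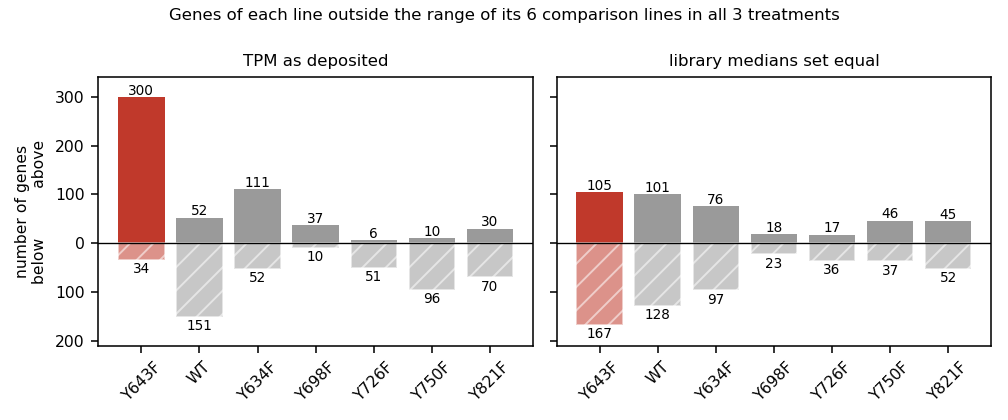
Number of genes (vertical axis) that lay above (upper bars) or below (lower, hatched bars) all 6 comparison lines in each of 3 treatments, for Y643F (red) and for each other line against the remaining 6 (gray). With TPM as deposited (left) Y643F had 300 genes above and 34 below, and with equal library medians (right) 105 and 167.

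A fit on single libraries, 3 against 18 with treatment as a factor, called 58 genes, 53 higher (0.583% of genes tested) and 5 lower (0.0550%). Its p-values are too small, since the 3 libraries of a line are the same cells. With the line entered as a correlated block, 2 genes were called, SCD below and MUC20 above, both named again in the following paragraphs.

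The gene with the smallest p of the 34 below the range was SCD, the desaturase that makes monounsaturated fatty acids. It stood at 22.6 TPM untreated, 15.2 TPM with E and 17.2 TPM with EA in Y643F. The other lines held 36.2 to 75.9 TPM untreated, 26.2 to 36.7 TPM with E and 31.7 to 44.8 TPM with EA. No Y643F library reached the lowest of the other 6 in its treatment, and the level difference was -1.12 ± 0.17 (log2, SE, limma, adjusted p = 0.313). The limma adjusted p was 0.025 when Y634F, the lowest of the other lines in UT and E, was left out, and it ran from 0.0022 in the fit on single libraries to 0.659 without the E libraries. FADS2, a desaturase of polyunsaturated fatty acids, was at 45.6, 65.7 and 68.3 TPM in Y643F. The lowest of the other lines were at 50.3, 75.4 and 81.3 TPM, and the difference was -0.43 ± 0.10 (SE). INSIG1, which holds back the activation of the sterol-regulated factors SREBP, was at 21.03, 20.4 and 22.5 TPM, against lowest values of 25.5, 20.5 and 25.1 TPM. With E the gap of INSIG1 to Y821F was smaller than the spread of the other lines.

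The list of cholesterol and fatty acid synthesis genes had 25 members in the kept set. Of these, 2 lay below the range, SCD and INSIG1, and 0 above it, beside 0.374% below and 3.30% above over all genes. Differences below 0 numbered 20. The median difference was -0.13 (log2), beside 0.06 over all genes tested, and the other lines had list medians from -0.04 to 0.14. With equal library medians 7 members lay below. At an unadjusted p under 0.05, 5 members were lower and 0 higher, where DHCR7 (-0.24), MVD (-0.23) and FDFT1 (-0.21), enzymes of the sterol pathway, joined SCD and INSIG1. HMGCS1, an early enzyme of that pathway, had a difference of 0.02, and FASN, the fatty acid synthase, of -0.07. A pair of genes was picked for lying above the range after their values were seen, so their side was set by the choice. CPT1A, which carries fatty acids into mitochondria for oxidation, was at 14.7, 13.6 and 15.5 TPM in Y643F, and the highest of the other lines were at 12.1, 11.3 and 10.96 TPM. PRKAB1, a subunit of the energy sensor AMPK, was at 25.5, 34.2 and 32.3 TPM, against highest values of 20.1, 29.1 and 30.6 TPM.

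The promoters of SCD, FADS2 and INSIG1 are shown because these genes lay below the range together. Each is 250 bases before to 50 after a start site from RefSeq (GRCh38.p14), on the plus strand, with CCAAT, or ATTGG as its reverse complement, in capitals. SCD is at chr10:100346983-100347282, FADS2 at chr11:61816154-61816453 for one of its listed starts, and INSIG1 at chr7:155297628-155297927. The SCD window held 2 matches, and those of FADS2 and INSIG1 1 each, while another FADS2 window held 0. Of all 35116 such windows, 34.6% held a match.
SCD: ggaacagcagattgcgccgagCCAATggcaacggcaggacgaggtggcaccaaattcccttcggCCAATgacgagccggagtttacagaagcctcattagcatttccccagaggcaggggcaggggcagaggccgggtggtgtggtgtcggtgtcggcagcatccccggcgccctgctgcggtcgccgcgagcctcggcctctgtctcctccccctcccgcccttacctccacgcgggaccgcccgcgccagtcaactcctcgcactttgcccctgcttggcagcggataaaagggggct
FADS2: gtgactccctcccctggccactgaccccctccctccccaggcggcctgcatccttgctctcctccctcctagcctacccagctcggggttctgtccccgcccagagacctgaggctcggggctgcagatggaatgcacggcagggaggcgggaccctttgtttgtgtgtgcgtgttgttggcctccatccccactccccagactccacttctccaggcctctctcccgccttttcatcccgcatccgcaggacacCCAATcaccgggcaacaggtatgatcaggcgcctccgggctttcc
INSIG1: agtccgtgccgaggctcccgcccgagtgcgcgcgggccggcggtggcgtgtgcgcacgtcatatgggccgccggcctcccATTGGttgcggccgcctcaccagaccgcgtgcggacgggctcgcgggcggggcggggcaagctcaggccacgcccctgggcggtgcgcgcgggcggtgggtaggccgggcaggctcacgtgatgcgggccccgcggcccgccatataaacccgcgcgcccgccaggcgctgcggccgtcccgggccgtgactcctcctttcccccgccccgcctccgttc

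**Figure D2:**
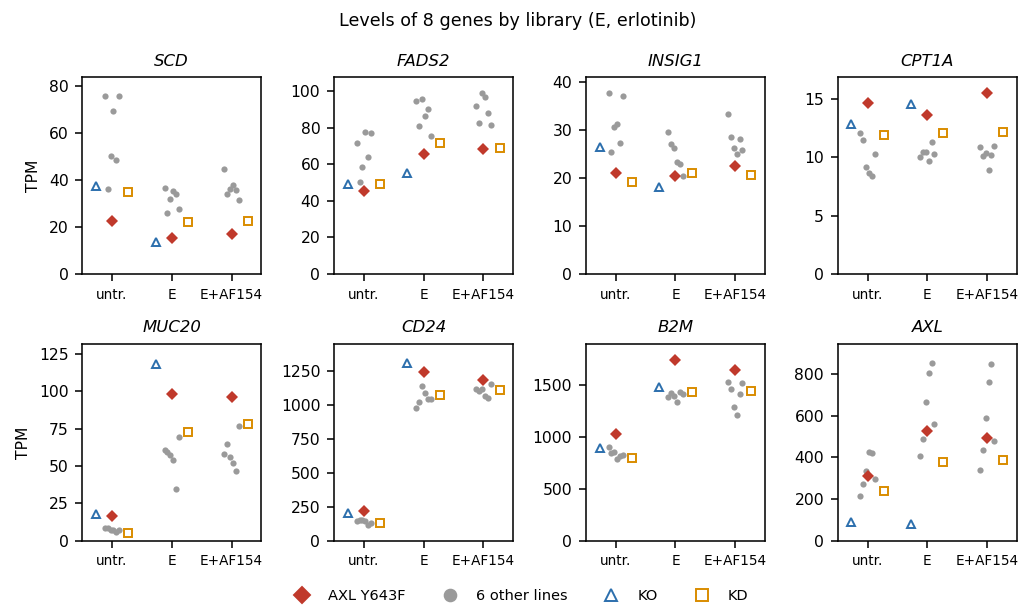
TPM (vertical axes, from 0) of 8 genes untreated, with erlotinib (E) and with erlotinib and AF154, where each point is 1 library of Y643F (red diamonds), of the 6 other lines (gray circles), of KO (blue triangles) or of KD (orange squares). Y643F lay under every gray point for SCD, FADS2 and INSIG1, over every one for CPT1A, MUC20, CD24 and B2M, and among them for AXL.

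Other genes below the range had smaller differences. EPHB2, a receptor tyrosine kinase for ephrins, was at 31.7, 46.3 and 47.1 TPM in Y643F, under lowest values of 34.2, 55.0 and 54.9 TPM, with a difference of -0.28 ± 0.06 (SE). AKAP12, a scaffold that anchors protein kinases A and C, was at 44.95, 37.2 and 34.9 TPM, under 47.0, 41.2 and 38.6 TPM (-0.26 ± 0.08, SE). STOML2, a mitochondrial inner membrane protein, was at 137, 94.6 and 96.1 TPM, under 139, 105 and 106 TPM (-0.22 ± 0.07, SE). The remaining named genes below were ORAI1, the pore of the store-operated calcium channel (-0.21), PROSER2 (-0.29), DYNC2I2, a part of the dynein of cilia (-0.21), HMG20B, a part of a chromatin repressor complex (-0.18), AMIGO2, an adhesion protein (-0.17), and RPL7A, a ribosomal protein (-0.15). None of these 6 passed the test.

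Genes above the range follow, named singly and not ranked by the size of the difference. MUC20, a membrane mucin, was at 16.4 TPM untreated, 98.3 TPM with E and 96.3 TPM with EA in Y643F. The other lines held 5.61 to 8.54 TPM, 34.7 to 69.3 TPM and 46.7 to 76.9 TPM, and the difference was 0.87 ± 0.19 (SE, limma, adjusted p = 0.32). MUC20 and its neighbor MUC4 lie in duplicated sequence, so how the quantification divided their reads is uncertain. CD24, a small sialylated surface glycoprotein, was at 221, 1237 and 1181 TPM, over highest values of 154, 1135 and 1153 TPM. Its gap was wide untreated and narrow with E and EA, and with equal medians CD24 lay inside the range. C15orf48, which encodes a subunit swapped into mitochondrial complex IV in inflammation, was at 108, 344 and 286 TPM, over 78.7, 313 and 280 TPM. RARRES1, a retinoid-responsive membrane protein chosen after its values were seen, was at 15.1, 54.9 and 35.1 TPM, over 8.27, 40.4 and 33.2 TPM, with a difference of 1.003 ± 0.24 (SE). C15orf48 and RARRES1 also lay inside the range with equal medians.

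The rest of the 12 named by rule have mixed roles, and not all of them lay above the range with equal library medians. VPS8, a subunit of an endosomal tethering complex, was at 39.1, 54.0 and 56.7 TPM, over highest values of 38.0, 39.9 and 47.9 TPM (0.42 ± 0.08, SE, limma, adjusted p = 0.313, with the smallest p of the genes above). OSBPL2, an oxysterol-binding lipid transfer protein, was at 40.6, 42.4 and 48.3 TPM, over 36.8, 35.7 and 41.6 TPM (0.35 ± 0.07, SE). IFT122, a part of the transport machinery of cilia, was at 26.7, 27.3 and 27.8 TPM, over 18.4, 23.4 and 22.6 TPM, and AGAP4, of a family of near-identical copies, at 26.1, 41.9 and 31.5 TPM, over 23.7, 31.2 and 30.5 TPM. BCAT1, the cytosolic aminotransferase of branched-chain amino acids, was at 69.8, 92.6 and 89.0 TPM, over 60.2, 82.5 and 83.1 TPM (0.31 ± 0.07, SE). DCUN1D2 (0.51), which promotes neddylation of cullins, the zinc finger gene ZSCAN30 (0.61), the translesion polymerase REV1 (0.39) and the RNA-binding protein TIAL1 (0.30) completed the 12.

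Transcript make-up bore on these counts. When only protein-coding transcripts were summed, an alternative added after the data were seen, 286 genes lay above and 47 below. Of the 300 above, 155 were still above, and 25 of the 34 below were still below. VPS8, AGAP4, IFT122, REV1 and TIAL1 were no longer outside, nor was INSIG1, while SCD, FADS2, MUC20, CD24, C15orf48 and BCAT1 were. Transcripts annotated as retained introns took 4.72%, 5.26% and 5.10% of the TPM in the Y643F libraries. Under E and EA these shares were above those of the other 6 lines, the highest of which was 4.96%, and their part in the result was not tested.

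**Figure D3:**
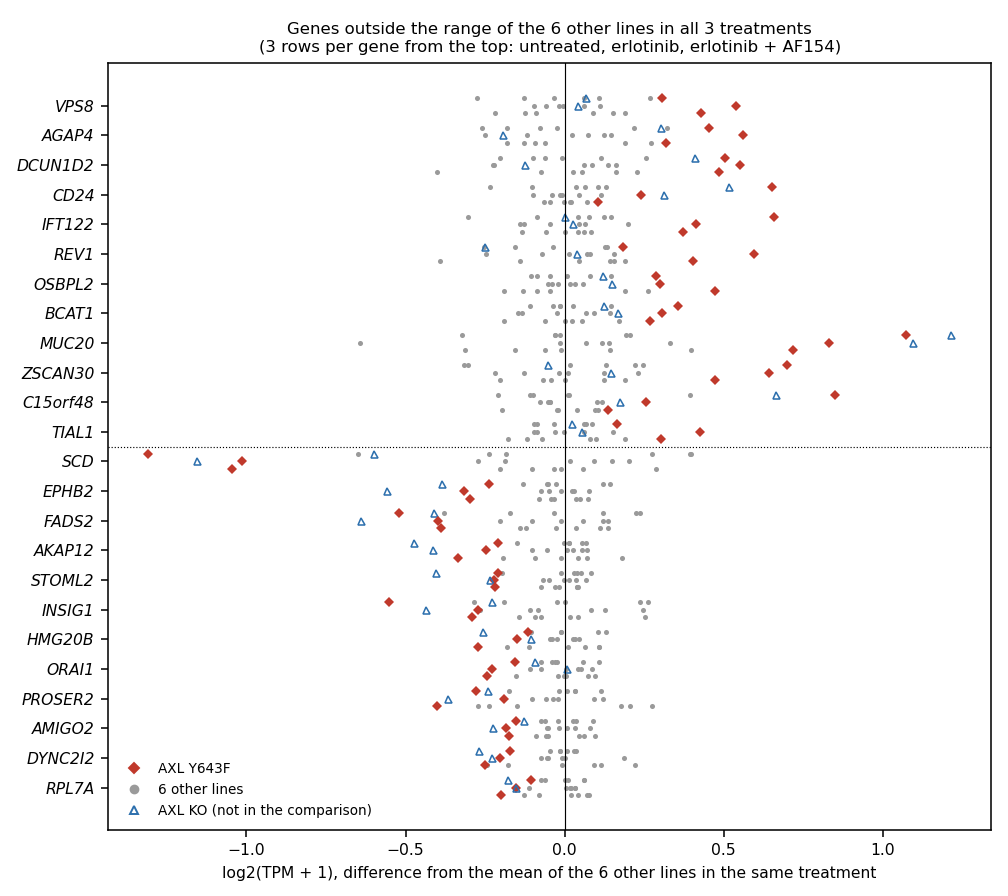
Difference in log2(TPM + 1) from the mean of the 6 other lines in the same treatment (horizontal axis) for the 12 genes named above and the 12 below the range, with 3 rows of points per gene for untreated, E and EA. Y643F (red diamonds) lay outside the 6 other lines (gray circles) in every row, the rule by which the genes were chosen, and KO (blue triangles, untreated and E) is shown against the same mean.

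KO, the line from which all 7 were made, was not used in choosing these genes, but its differences are taken from the same 6 lines as those of Y643F. SCD was at 37.5 TPM untreated and 13.7 TPM with E in KO, and at 35.2, 22.3 and 22.7 TPM in KD. FADS2 was at 49.2 and 55.4 TPM in KO, under the lowest of the 6 other lines in both treatments. EPHB2 (28.4 and 39.0 TPM), AKAP12 (37.3 and 33.0 TPM) and STOML2 (120 and 93.9 TPM) stood likewise in KO, while KD was inside the range for EPHB2 and STOML2. MUC20 was at 18.2 and 118 TPM in KO and at 5.17, 72.4 and 78.0 TPM in KD. Over UT and E, the 34 genes below the range had a median difference from the 6 lines of -0.17 in Y643F, which the rule fixes, of -0.18 in KO, -0.0026 in KD and -0.14 in the parental line. The 300 genes above had 0.25 in Y643F, 0.07 in KO, -0.03 in KD and 0.03 in the parental line, while over all genes tested the medians were 0.06, -0.01, -0.03 and -0.04. The share of cells without AXL in Y643F was not measured in these files, and its part in these values was not tested.

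Lists of inflammatory and immune genes come next. Over all genes tested, 3.30% lay above the range and 0.374% below, the shares to set beside each list count that follows. Of 14 cytokines, chemokines and NF-kappaB targets, 3 lay above the range and 0 below. The list's median difference was 0.29, beside 0.06 over all genes tested and -0.26 to 0.14 in the other lines. NFKBIA, the inhibitor induced by NF-kappaB itself, was at 34.2, 70.4 and 69.7 TPM in Y643F, over highest values of 27.6, 65.3 and 65.0 TPM (0.30 ± 0.08, SE, limma, adjusted p = 0.33). BIRC3, an inhibitor of apoptosis that the same factor induces, was at 26.7, 70.0 and 70.4 TPM, over 23.4, 60.8 and 67.2 TPM, and LCN2, a secreted iron-siderophore carrier, at 323, 347 and 368 TPM, over 306, 332 and 316 TPM. With equal library medians NFKBIA was outside and BIRC3 and LCN2 were not.

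Of 10 antigen presentation genes 1 lay above, B2M, the light chain of class I molecules, at 1029, 1742 and 1647 TPM over highest values of 904, 1433 and 1534 TPM (0.28 ± 0.07, SE, limma, adjusted p = 0.33). HLA-E, a class I heavy chain, was at 16.7, 37.5 and 30.9 TPM, higher than the other lines untreated and with E and below Y821F with EA. Of 13 interferon-stimulated genes 1 lay above, PARP9, at 11.9, 18.8 and 17.1 TPM over 11.7, 14.8 and 16.3 TPM. All 13 differences were above 0 and the list median was 0.13, but 69.2% of all genes tested also had a difference above 0. XAF1 (0.45), MX1 (0.38) and OAS1 (0.31), which acts against viral RNA, had the largest differences and lay inside the range in at least 1 treatment.

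**Figure D4:**
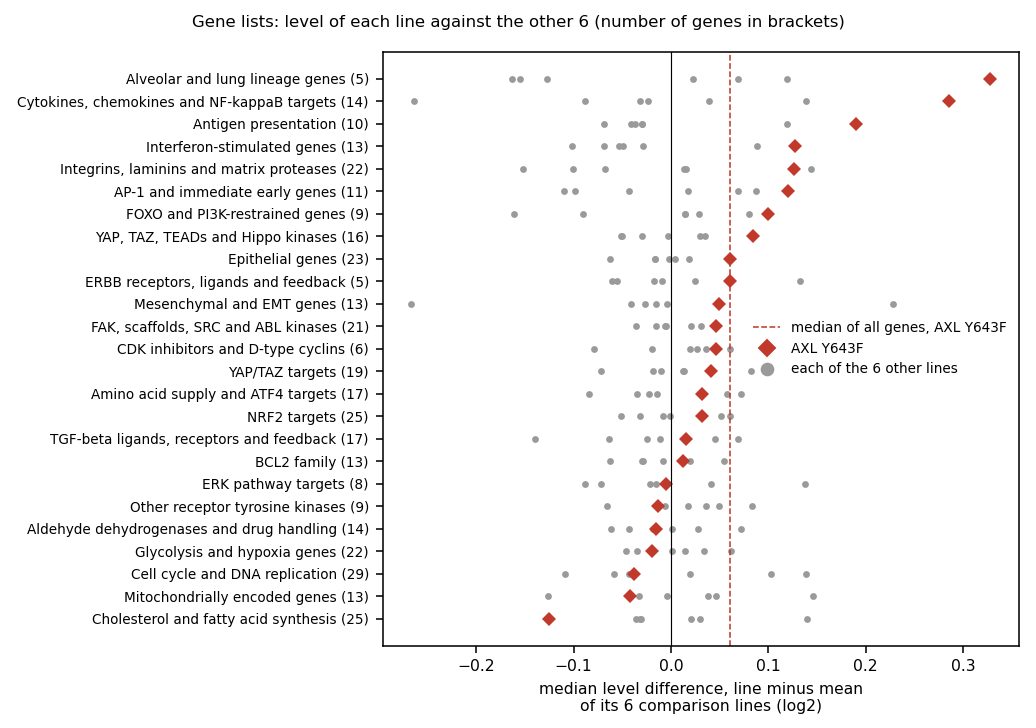
Median difference in level (log2, horizontal axis) of 25 fixed gene lists, each with 5 or more genes tested, for Y643F (red diamonds) and for each other line against its 6 comparison lines (gray circles). The Y643F median of all genes is a dashed line. Y643F was the highest of the 7 lines for 9 of 25 lists and the lowest for 1, cholesterol and fatty acid synthesis (-0.13). The 9 were led by lung lineage genes (0.33, 5 genes), cytokines and NF-kappaB targets (0.29) and antigen presentation (0.19). Over all genes the Y643F median (0.06) was also the highest of the 7 lines, with Y634F next (0.02). Of the 9 lists, epithelial genes (0.06) and the FAK list (0.05) did not exceed that Y643F median.

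Epithelial genes numbered 23, of which 3 lay above the range and 0 below, beside 3.30% and 0.374% of all genes tested. The list median was 0.06, the same as over all genes tested. CLDN1, a tight junction claudin, was at 18.5, 30.8 and 31.8 TPM over 14.1, 26.1 and 27.1 TPM (0.60 ± 0.14, SE). CDH1, the epithelial cadherin, was at 92.9, 144 and 169 TPM over 91.3, 143 and 150 TPM, inside the range with equal medians. MAL2, a carrier of apical transport, was at 176, 114 and 112 TPM over 165, 93.0 and 104 TPM. Of 13 mesenchymal genes 0 lay outside, with a list median of 0.05. Of 22 integrins, laminins and matrix proteases, 20 differences were above 0, beside 69.2% of all genes tested. The list median was 0.13, inside the -0.15 to 0.14 of the other lines, where Y634F was higher. PLAUR, the urokinase receptor, was the 1 above the range (77.8, 53.6 and 54.7 TPM over 70.5, 51.5 and 50.7 TPM).

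Stress and death genes were represented by ATF3 and PMAIP1. ATF3, a stress-induced factor, was the 1 of 11 AP-1 and immediate early genes above, at 21.5, 38.5 and 45.7 TPM over 13.4, 31.0 and 32.3 TPM (0.72 ± 0.19, SE, limma, adjusted p = 0.33). PMAIP1, the BH3-only protein NOXA that opposes MCL1, was the 1 of 13 BCL2 family genes above, at 20.4, 20.3 and 22.6 TPM over 16.3, 17.9 and 19.4 TPM (0.36 ± 0.09, SE). BMF, another BH3-only gene, had a difference of 0.43 and lay inside the range in at least 1 treatment.

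Receptors, ligands and the kinases near AXL were mostly inside the range. Of 3 TAM receptors and ligands kept, TYRO3 and AXL among them, 0 lay outside. TGFA, a ligand of EGFR, was the 1 of 5 genes of the ERBB list above, at 61.9, 47.2 and 48.6 TPM over 58.4, 41.4 and 42.9 TPM (0.24 ± 0.07, SE). Of 9 other receptor tyrosine kinases EPHB2 lay below and MST1R, the receptor RON, above, at 55.0, 45.1 and 53.5 TPM over 54.4, 42.5 and 50.5 TPM. Of 21 genes for FAK, scaffolds, SRC and ABL kinases 2 lay above, beside 3.30% of all genes tested. PTK2, which encodes FAK, was at 92.4, 79.5 and 92.7 TPM over 84.7, 78.3 and 76.8 TPM (0.20 ± 0.06, SE), and ABL2, an ABL family kinase, at 19.96, 20.1 and 22.96 TPM over 18.3, 19.9 and 22.4 TPM. Both, like MST1R and PLAUR, lay inside the range with equal medians. NEDD9, a FAK scaffold, was at 65.0, 260 and 269 TPM and lay inside the range under E and EA. YAP1, the coactivator that the Hippo kinases restrain, was at 100, 97.6 and 105 TPM, with a difference of 0.09. Of 19 YAP/TAZ targets 0 lay above and 1 below, CCN2, at 12.01, 12.1 and 12.1 TPM under lowest values of 12.3, 12.8 and 12.9 TPM. The YAP/TAZ target median was 0.04.

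In other lists, TGFBR2 was the 1 of 17 TGF-beta genes above (32.7, 30.6 and 31.9 TPM over 31.0, 28.2 and 29.8 TPM), and ADM, which encodes adrenomedullin, the 1 of 22 glycolysis and hypoxia genes (18.8, 32.6 and 32.0 TPM over 15.8, 32.1 and 31.6 TPM). Of 25 NRF2 targets 2 lay above, beside 3.30% of all genes tested. They were the transporter ABCC3 (80.7, 117 and 95.0 TPM over 73.7, 108 and 88.5 TPM) and the aldo-keto reductase AKR1B10 (68.5, 89.6 and 90.3 TPM over 64.5, 84.1 and 87.7 TPM). ADM and AKR1B10 lay inside the range with equal medians. None was outside among 29 cell cycle genes (median -0.04), 8 ERK targets (-0.0055), 16 genes for YAP, TAZ, TEADs and Hippo kinases (0.08), 6 CDK inhibitors and D-type cyclins, 17 ATF4 targets, 9 FOXO targets, 14 drug-handling genes, 13 mitochondrially encoded genes (-0.04) and 5 lung lineage genes. The lung lineage median of 0.33 rested on CEACAM6 (0.64), KRT5 (0.41), MUC1 (0.33), LPCAT1 (0.12) and FOXA1 (-0.23).

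The erlotinib change, E minus UT, was compared next. In the 6 other lines, 6779 genes (74.6% of those tested) changed with erlotinib by limma at an adjusted p under 0.05, 3175 up and 3604 down. In Y643F 6444 of the 6779 (95.1%) moved the same way. Their change in Y643F was 0.916 times that of the other lines, the lowest such slope of the 7 lines, which otherwise ran from 0.931 in WT to 1.07 in Y821F. Across genes, r between the change of Y643F and the mean change of the others was 0.933, a description over 9085 genes that are not independent replicates. The difference between Y643F and the other lines passed for 0 genes (smallest limma adjusted p = 0.409), and 583 genes had an unadjusted p under 0.05. The change of Y643F lay above that of all 6 lines for 1924 genes (21.2%) and below for 1150 (12.7%), 3074 in all. The same count gave 3859 genes for WT, with 1141 at an unadjusted p under 0.05, and 2032 to 2423 for the other 5 lines.

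Of the 10 genes named for the erlotinib change, the smallest p was that of TYRO3. TYRO3, a relative of AXL, went from 20.8 TPM untreated to 8.39 TPM with E in Y643F. In the other lines it went from between 16.8 and 20.2 TPM to between 12.7 and 15.4 TPM, and its changes there were -0.52 to -0.30 (log2) against -1.21 in Y643F (limma, adjusted p = 0.409). In KO, TYRO3 went from 18.4 to 8.64 TPM. Its AF154 change in Y643F was 0.33, above the -0.52 to 0.12 of the other lines, and both changes rest on the same E library. AXL itself changed by 0.76 in Y643F and by 0.83 to 1.01 in the other lines. In Y643F the transcript AXL-201 went from 52.2 to 47.0 TPM, while AXL-202 (105 to 137 TPM) and AXL-203 (97.1 to 188 TPM) rose. In lines without a transduced copy AXL did not rise with E. It fell in KO, and in the parental line AXL-201 went from 139 to 115 TPM and AXL-202 from 186 to 116 TPM. The part of the transduced copy in the change was not tested. CENPI, a centromere protein, went from 17.7 to 10.4 TPM (-0.71, against -1.61 to -1.43), and DEK, a chromatin protein, from 91.7 to 83.8 TPM (-0.13, against -1.004 to -0.73). For DEK the untreated library was the one apart, since the other lines held 132 to 165 TPM untreated and 75.6 to 87.7 TPM with E. NDUFA3, a complex I subunit, went from 56.9 to 95.6 TPM (0.74, against -0.18 to 0.15). PRELID3A (-0.14, against -1.01 to -0.78) and MRPL39, of the mitochondrial ribosome (-0.23, against -0.92 to -0.73), were the others above. NOCT, a circadian phosphatase, was at 11.1 and 11.7 TPM, while the other lines went from at most 8.34 TPM to at least 13.5 TPM. ANO7L1, a pseudogene (-1.22), ELMOD3 (-0.36) and VPS35L (-0.54) completed those below, all under 25 TPM.

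Of 25 lists, 17 had a Y643F median erlotinib change inside that of the 6 other lines, 6 above and 2 below. Over all genes tested, 21.2% had a change above the range and 12.7% below, the shares to set beside the member counts here. The medians below were those of the BCL2 family (-0.07, against 0.03 to 0.26, with 5 of 13 members below the range and 1 above) and of cytokines and NF-kappaB targets. Those above were mesenchymal genes (1.19, against 0.86 to 1.07), integrins (-0.04, against -0.22 to -0.08), ERBB genes (-0.36, against -0.52 to -0.40), NRF2 targets (0.30, against 0.17 to 0.28), ATF4 targets and TGF-beta genes, these last with medians within 0.01 of the nearest line. ERK pathway targets had a median erlotinib change of -2.46, inside the -2.79 to -2.08 of the other lines. The 8 kept were DUSP4, SPRED2, ETV4, ETV5, PHLDA1, FOSL1, MYC and CCND1. Cell cycle genes had -1.46, and of 23 epithelial genes 9 had a change below the range and 2 above it. Cytokines and NF-kappaB targets had a median of 0.82, under the 0.83 to 1.07 of the other lines, with 5 of 14 below the range and 0 above it. The level of this list over the 3 treatments was higher in Y643F (median difference 0.29), and its part in the change was not tested. The TAM list, with 3 members kept, was not among the 25. Its median erlotinib change in Y643F, that of AXL, was 0.76, under the 0.78 to 0.91 of the other lines.

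The AF154 change, EA minus E, was smaller, with a median size over genes of 0.13 (log2) in Y643F beside 0.37 for erlotinib. No gene passed in the 6 other lines (0 of 9085) or in the difference between Y643F and them (0 by limma, 394 at an unadjusted p under 0.05, smallest adjusted p = 0.884). The change of Y643F lay above the 6 lines for 1095 genes (12.1%) and below for 1256 (13.8%), 2351 in all. The same count was larger for Y821F (3699), WT (2699), Y698F (2670) and Y726F (2633), and smaller for Y750F (2167) and Y634F (1950). The SD of the change over genes was 0.29 in Y643F, the highest after Y821F (0.34), and 0.23 to 0.24 in the 5 others. The r across genes with the mean of the other lines was 0.40, also highest of the 7, where WT had -0.0050.

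ERK pathway targets, which growth factor receptors drive through the MAP kinase cascade, were compared by list. All 8 had a change above 0 in Y643F, against 2 to 7 of 8 in the other lines. Above the range lay 4 of 8, beside 12.1% of all genes. The median change was 0.29, and the other lines ran from -0.12 in Y821F to 0.15 in Y698F, with -0.35 in KD and 0.18 in the parental line. FOSL1, an AP-1 factor, went from 18.7 to 29.2 TPM between E and EA, a change of 0.62 against 0.03 to 0.45. MYC went from 36.0 to 49.9 TPM, a change of 0.46 against -0.32 to 0.22. PHLDA1 (2.43 to 3.24 TPM, 0.31 against 0.02 to 0.23) and CCND1, a D-type cyclin (197 to 219 TPM, 0.15 against -0.14 to 0.07), were the others above. The parental line, outside this comparison, changed more than Y643F for FOSL1 (0.74) and PHLDA1 (0.35). It changed less for MYC (0.06) and CCND1 (0.07). ETV4 and ETV5, factors of the PEA3 group, had changes of 0.30 and 0.28, inside the wide ranges of the other lines. The EA levels stayed far under the untreated ones, as FOSL1 had 200 TPM and MYC 87.7 TPM there. Of the 8, MYC had the lowest p (limma, adjusted p = 0.886), and each change rests on 1 library with E and 1 with EA. Over the 25 lists, 18 had a Y643F median AF154 change inside that of the 6 other lines, 5 above and 2 below. The others above were AP-1 and immediate early genes (0.13, against -0.19 to 0.08, with 3 of 11 members above beside 12.1% of all genes), lung lineage genes (0.33), ERBB genes (0.13) and cytokines and NF-kappaB targets (0.03). Those below were antigen presentation (-0.11, against -0.06 to 0.09) and CDK inhibitors and D-type cyclins (-0.13, against -0.09 to 0.02).

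**Figure D5:**
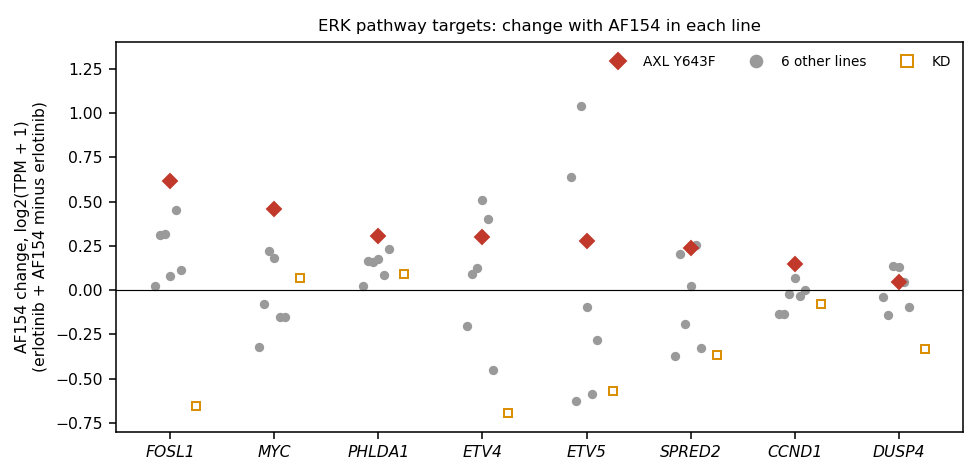
Change with AF154 on the log2(TPM + 1) scale (EA minus E, vertical axis) for 8 ERK pathway targets, with 1 point for Y643F (red diamonds), each of the 6 other lines (gray circles) and KD (orange squares). All 8 red points were above 0, and those of FOSL1, MYC, PHLDA1 and CCND1 were above every gray point.

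Single genes named for the AF154 change came from levels under 50 TPM. SRM, the spermidine synthase, went from 24.6 to 41.0 TPM in Y643F, a change of 0.72 against -0.29 to 0.11 in the other lines. KDM2B, a histone demethylase, went from 15.2 to 25.4 TPM (0.71, against -0.13 to 0.14), and RGS20, a regulator of G proteins, from 8.16 to 14.9 TPM (0.79, against -0.37 to 0.17). MALL, a raft protein, went from 1.17 to 3.56 TPM, and DGCR6L, which has a near-identical copy, from 22.4 to 31.0 TPM. On the other side, CCNE1, the cyclin of entry into S phase, went from 9.62 to 5.79 TPM (-0.64, against 0.01 to 0.39). The other lines held CCNE1 at 3.75 to 5.58 TPM with E, so its E library was the one apart. PSMB8, an immunoproteasome subunit, went from 15.1 to 7.18 TPM and TUBD1, the delta-tubulin, from 15.2 to 8.83 TPM. DEAF1, a transcription factor, went from 24.3 to 15.5 TPM, and ZNF818P, a pseudogene, from 24.8 to 14.7 TPM. The erlotinib and AF154 changes share the E library, so a value that was high or low there moves both in opposite directions. Of the 20 genes named for a change, 11 lay outside the range in both changes on opposite sides, namely TYRO3, NDUFA3, NOCT, VPS35L, CCNE1, RGS20, DGCR6L, MALL, SRM, TUBD1 and ZNF818P.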

How the data were processed

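RNA was sequenced from 29 dishes of PC9 lines. The authors deposited transcript TPM, which total the same in each library and keep no depth, so depth and counting error are unknown and the error of each value rests on how far the lines differed. Submitters' processing notes name kallisto and GRCh38, with no version, and strand handling is not given in the sources used here. Transcripts were matched by identifier to GENCODE release 29 (169754 of 188753) and summed per gene. A gene entered when its average across all 29 reached 10 TPM (9085 genes). Tests used log2(TPM + 1), with a pseudocount of 1, which understates changes of low genes. Y643F was compared with 6 lines by limma 3.58.1 in R 4.3.3 (lmFit, eBayes with trend, Benjamini-Hochberg threshold 0.05), on line means and on within-line changes, where lines are the replicates. The SE in a 1 against 6 fit assumes that Y643F varies as the others do. Figures used Python 3.11.15, numpy 2.4.6, pandas 2.3.3 and matplotlib 3.10.9.

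Named genes were AXL, EGFR, YAP1, PTK2 and NEDD9, the 12 above and 12 below, and 5 and 5 per change, taken by smallest p among genes outside the range of the 6 lines (for the level in all 3 treatments) since none passed, and per list up to 2 members outside the range with the largest difference. CPT1A, PRKAB1, RARRES1, MAL2, LCN2, HLA-E, OAS1, XAF1, MX1, BMF, the sterol enzymes, the lung lineage genes and the ERK targets were named after their values were seen. The members and lists were chosen with earlier results of these data known. Alternatives were another pseudocount, other filters, centring, quantile normalization, single-library fits, KD added and leaving out each line or treatment. The scripts were tested on simulated data.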

Additional observations from a re-analysis of the deposited data

Results flagged for a closer look

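Some values of the 6 comparison lines stood apart from the other 5, by Dixon's criterion on the gap to the nearest line, in 5 of 66 groups tested, where chance gives about 1 in 20 groups. STOML2 was lowest in Y634F (6.87 on the log2 level scale, median of the 6 lines 6.998), INSIG1 highest in WT (5.10, median 4.81) and AKR1B10 lowest in Y750F (5.81, median 6.20). The erlotinib change of CENPI was lowest in WT (-1.61, median -1.46) and that of NDUFA3 highest in WT (0.15, median -0.11).

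For 5 named genes the change in Y643F ran opposite to that of all 6 other lines, and this difference was not tested apart from the limma fit, in which none passed. With erlotinib, ANO7L1 changed by -1.22 in Y643F (median of the others 0.52) and ELMOD3 by -0.36 (0.33). With AF154, DGCR6L changed by 0.45 (-0.19), TUBD1 by -0.72 (0.07) and CCNE1 by -0.64 (0.12). Genes named for a change were picked for lying outside the other lines.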

How the results depend on the processing

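Treatments were compared within each line, so those changes are paired by line. No block on replicate number could be fitted, since the labels give 1 library per line and treatment and no replicate numbers. With no filter beyond a value above 0, limma called 550 genes for the level, 549 for the erlotinib change and 436 for the AF154 change, of which 494, 508 and 417 had a mean under 1 TPM, and 559 genes lay outside the range, 512 of them above. Library medians set equal gave 105 above and 167 below, quantile normalization 120 and 112. The level gave 58 calls on single libraries and 2 with the line as a correlated block. Leaving out a line or treatment, which leaves fewer values to exceed, gave 360 to 1308 genes outside, 316 to 1152 above and 42 to 160 below, the highest totals without untreated libraries (1308), without EA (837) and without E (613), then without Y634F (518), WT (517) and Y821F (504). It gave 0 to 1 calls for the level (SCD without Y634F), 0 for the erlotinib change and 0 to 1 for the AF154 change (RPL22P1 without Y821F). The remaining settings kept each count within 1.5 times. The EGFR level difference turned to -0.066 with equal medians and -0.012 with quantile normalization, and ran from -0.048 to 0.068 when a line or treatment was left out. The erlotinib difference of VPS35L turned to 0.066 with protein-coding transcripts only, and the AF154 difference of MALL to -1.50 with quantile normalization. The causes were not tested.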

Other observations

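The genes outside the range were spread unevenly over chromosomes. Of 532 genes tested on chromosome 3, 38 (7.14%) lay above and 0 below, beside 3.30% above over all genes, and on chromosome 13 it was 12 of 123 (9.76%) and on chromosome 20 19 of 267 (7.12%). On chromosome 9, 2 of 364 lay above and 6 below, and with equal library medians 0 above and 23 below. The median level difference on chromosome 9, taken relative to that of all genes, was -0.10 (log2) in Y643F and between -0.08 (Y634F) and 0.05 (Y750F) in the other lines. For chromosome 13 it was 0.06, where the others ran from -0.05 to 0.03, and for chromosome 20 0.04, where they ran from -0.05 to 0.03. For chromosome 3 it was 0.0499, barely over Y634F (0.0480). It was -0.06 for chromosome 19, where the others ran from -0.03 to 0.04, and -0.05 for chromosome 22, where they ran from -0.02 to 0.04. STOML2, DYNC2I2 and RPL7A, named above as below the range, are on chromosome 9. DNA copy number was not measured in these files, and its part in these values was not tested.

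The 300 genes above had a median transcript length of 2857.5 bases, beside 2351 over all genes tested and 2249.5 in the 34 below. Their median level was 31.7 TPM, beside 32.9 TPM over all and 67.2 TPM in the 34 below.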
